A study of Caenorhabditis briggsae with 13 samples.

Results

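In Caenorhabditis briggsae, a nematode related to Caenorhabditis elegans, 37 of the 19528 genes on the array kept a low mean level through the 95-cell embryo and rose at 190 cells. The median of the 37 genes stood at -4.48 at 95 cells and at -1.15 at 190 cells. Levels are log2 intensities set against the 75th percentile of all gene probes on the same array and averaged over a gene's probes, so that 0 is a spot as bright as that percentile. The genes were chosen from these same levels. Their mean level was at or below -2 at 4 cells, stayed less than 1 above the 4-cell level at 28, 55 and 95 cells, rose by at least 2 from 95 to 190 cells, and reached at least -2 at 190 cells. Every stage entered the choice, so the levels below are a description and carry no test.

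The samples were total RNA from embryos of strain AF16, and each sample pooled 50 embryos. The labels name no treatment. The 4-cell stage had 2 arrays, the 28-cell stage (55 min later) 3, the 55-cell stage (80 min) 3, the 95-cell stage (120 min) 2 and the 190-cell stage (160 min) 3. The labels call replicates of a stage biological and give poor amplification as the reason for the stages with 2 arrays. The RNA was amplified before labelling with Cy3. Whole embryos were measured, so more cells of a type and more RNA per cell cannot be told apart.

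The early nematode embryo runs on RNA laid down by the mother. Transcription from the embryo's own genome starts during the first cleavages, and in C. elegans successive waves of it specify founder lineages, then tissues. In C. elegans the last stage measured here falls in gastrulation, when gut, mesoderm and germline precursors move inside. What the 37 genes do is not given here. The array names genes by WBGene number alone, and 0 of the 37 numbers (0 of all 19528) occurred in the RefSeq gene table used here (assembly CB4). Gene symbols, functions, positions and sequences were therefore not used, and the lists of tissue markers could not be applied.

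Some arrays need care. For 4 arrays, titled 28-cell B, 55-cell A, 190-cell B and 95-cell A, the stage tag reads 4-cell, and titles were used. The scanner output deposited for 28-cell C was a copy of that of 190-cell C, so detection flags rest on 12 arrays, and levels of 28-cell C come from the series table. The intensity at the 75th percentile lay between 234.8 and 546.6 on the 13 arrays. The rule found 58 genes without the 4 arrays with contradictory tags, 35 of them among the 37, and 59 without 190-cell B, 36 of them among the 37. It found 12 genes, 8 of them among the 37, with arrays scaled on the probes detected on all of them. Which genes meet the rule thus depended on arrays and scaling. The median rise of the same 37 genes was 3.52 and 3.53 without those arrays and 3.30 in that scaling, against 3.33, and 1.77 with another background correction (normexp, 12 arrays), with which 21 genes met the rule and 9 of them were among the 37.

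WBGene00035388 had the largest rise over its highest earlier stage. The intensity of its A probe was 7.18 and 5.46 in the 4-cell embryo, 7.91, 5.13 and 7.81 on the 28-cell arrays, 4.68, 8.81 and 8.58 in the 55-cell embryo, and 13.3 and 26.2 in the 95-cell embryo. In the 190-cell embryo it was 819 on array A, 613 on array B and 1698 on array C. The B probe ran from 3.59 to 15.6 over the 10 earlier arrays, and read 521, 477 and 1014 at 190 cells. Both probes were high on all 3 arrays of the 190-cell stage and low on every earlier array, with no overlap. As a level over both probes, the gene moved from a 4-cell mean of -5.65 ± 0.17 (SD, n = 2) to a 95-cell mean of -5.03 ± 0.66 (n = 2) and a 190-cell mean of 0.89 ± 0.32 (n = 3). The rise from 95 cells was 5.92 on the log2 scale, or 60.6-fold. A probe of it was well above background on 1 of the 2 arrays of the 95-cell stage, so the base of this fold rests in part on a signal that was not.

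WBGene00041087 was the brightest of the 37 genes at 190 cells and had the second largest rise. Its B probe read 9.67 and 7.64 in the 4-cell embryo, 17.9, 13.4 and 4.86 on the 28-cell arrays, 43.5, 31.3 and 31.2 in the 55-cell embryo, and 87.6 and 55.9 in the 95-cell embryo. In the 190-cell embryo the probe read 2290, 1525 and 8736. The intensity of this probe was thus already higher in the 55-cell and 95-cell embryos than in the 4-cell embryo, and array C of the 190-cell stage stood far above A and B. The gene was detected on 6 of the 9 earlier arrays with flags. The A probe was dimmer, at 228, 77.3 and 1538 on the 190-cell arrays. It was well above background on no array with flags up to 55 cells, so an early rise could not be judged on it. The readings of the A probe were 4.36 and 5.87 at 4 cells, 4.34, 3.63 and 4.66 at 55 cells, and 6.47 and 8.30 at 95 cells. The gene's mean level moved from -4.48 ± 0.015 (SD, n = 2) in the 95-cell embryo to 1.21 ± 1.39 (n = 3) in the 190-cell embryo, a rise of 5.70, or 51.9-fold. In the 95-cell embryo 1 of 2 arrays had the A probe well above background, so this base too rests in part on a signal that was not.

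**Figure D1:**
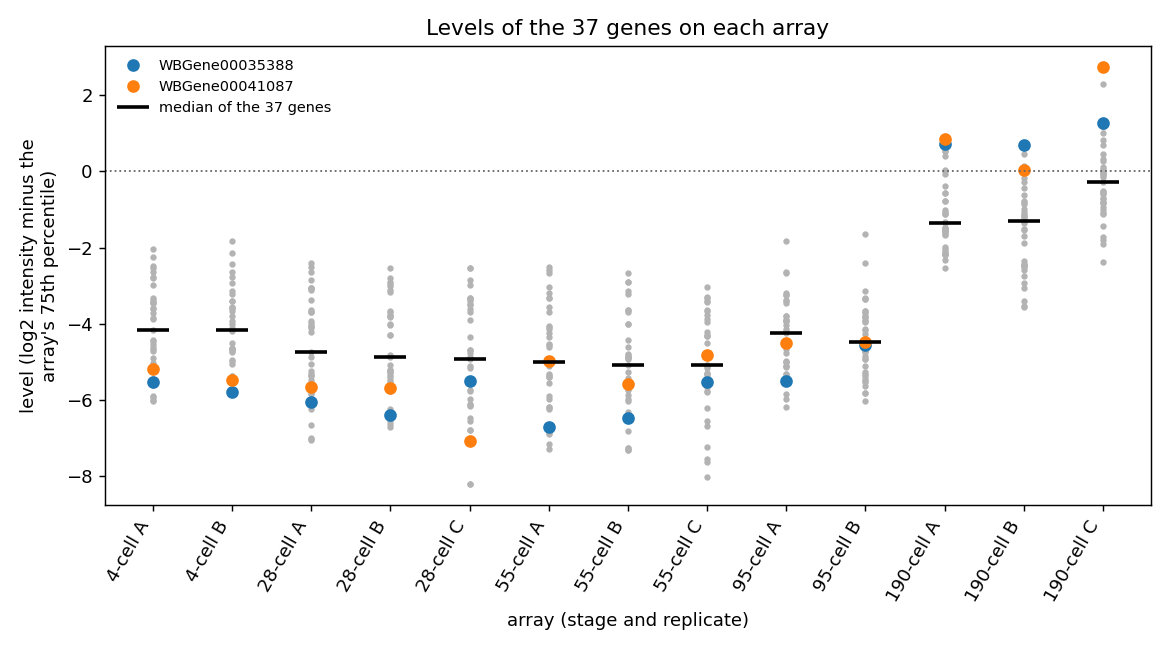
Level of each of the 37 genes on each of the 13 arrays (grey points), on the log2 scale relative to the array's 75th percentile (dotted line at 0), with the median over genes as black bars and the genes WBGene00035388 and WBGene00041087 in colour. The median lies between -5.09 and -4.15 on the 10 earlier arrays, and at -1.36, -1.30 and -0.27 on 190-cell A, B and C.

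As a group, the 37 genes lay near the bulk of the array before 190 cells and well above it afterwards. Their median level was -4.23 in the 4-cell embryo, -4.98 in the 28-cell embryo and -4.996 in the 55-cell embryo, before the values of -4.48 and -1.15 given above. The median of all 19528 genes stayed between -4.74 and -4.30 over the same stages. At 190 cells the levels of the 37 genes ran from -1.94 to 1.21, and 7 of them were at or above the 75th percentile, as were 21.0% of all genes.

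The rise from 95 to 190 cells ranged from 2.05 to 5.92, with a median of 3.33 (10.0-fold; 1.77 with normexp), whereas the median change of all genes was -0.037. It was at least 3 for 24 genes, at least 4 for 9 and at least 5 for 3. Against the highest of the earlier stages, whichever that was, the rise ranged from 1.24 to 5.92, with a median of 2.85 (7.19-fold). The gene with the third largest rise from 95 cells went from -5.37 ± 0.094 (SD, n = 2) in the 95-cell embryo to -0.064 ± 0.38 (n = 3) in the 190-cell embryo. Because it began at -3.60 at 4 cells, its rise over the highest earlier stage was 3.54, against 5.30 over 95 cells. The gene that ranked second in level at 190 cells, at 0.89 ± 1.27 (n = 3), was above background on all 9 earlier arrays with flags and rose by 4.67. The gene of rank 4 in level, at 0.66 ± 0.16 (n = 3), was also detected on all 9 and rose by 4.27, with 190-cell arrays that differed little.

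Every 190-cell array lay above both 95-cell arrays for all 37 genes, a separation that 10.8% of all genes showed. For 35 of the 37 genes, every 190-cell array lay above all 10 earlier arrays, where 4.42% of all genes did so. The rule used the same levels, and nothing is read from either count. The other 2 genes overlapped through 190-cell B. One of these read -2.16, -3.41 and 0.27 on 190-cell A, B and C. Its highest earlier array, 4-cell A, read -2.79, and its 55-cell arrays read -3.03, -2.90 and -3.43. The other read -1.57, -3.52 and -0.042 at 190 cells, and its highest earlier array, 28-cell C, read -3.31.

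The same contrast was fitted across all tested genes with limma, with Benjamini-Hochberg adjustment and a threshold of 0.05 on the adjusted p. All 37 genes were tested and all 37 were called higher at 190 than at 95 cells, as were 4.71% of the 13443 genes tested. The numbers of the 37 called higher were 36 against 55 cells (16.7% of all genes tested), 37 against 28 cells (25%) and 36 against 4 cells (26.6%). The comparisons share the 190-cell arrays and were used to choose the genes, so nothing is read from these counts. The main scaling called 991 genes in either direction against 95 cells. With spike-in scaling, which also left out 28-cell C, 84 genes and 16 of the 37 were called. Leaving out 28-cell C alone gave 1047 genes and 36 of the 37. Leaving out 95-cell A gave 534 genes in all and 30 of the 37, and leaving out 95-cell B gave 389 and 28.

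The label of a switch at 190 cells alone was set against the scanner's detection flags. The rule did not use the flags, but they come from the same spots as the levels. A gene counted as detected on an array when at least 1 of its probes was well above background there. On the 190-cell arrays all 37 genes were detected throughout, as were 66.8%, 64.7% and 78.7% of all genes on A, B and C. The rule asked for a level of at least -2 there, so nothing is read from this count. None was undetected on all 9 earlier arrays with flags. 17 of the 37 were detected on all 9 of those arrays, and 6 on only 1 or 2 of them. These counts over several arrays are given without a share over all genes and describe the 37 alone. All 37 were detected on 95-cell B and 25 on 95-cell A. The arrays differed in sensitivity: the lowest signal called well above background was 4.44 on 95-cell B and 28.1 on 95-cell A, and over all genes 75.04% and 56.1% were detected on them. Among the 37, 12 genes were detected on 95-cell B alone at that stage. Detection at 190 cells alone was thus seen for none of the 37, but 95-cell B by itself fixes that count. A flag on 1 probe at its low floor cannot decide whether a gene was on. The genes are called here by the late rise that chose them.

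**Figure D2:**
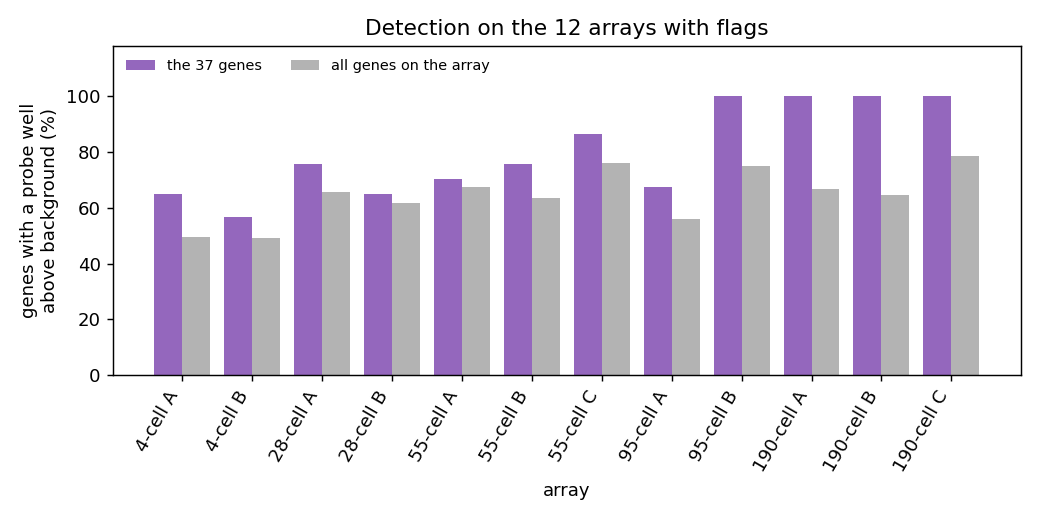
Share of genes with at least 1 probe well above background on each of the 12 arrays with flags, for the 37 genes (purple bars) and for all 19528 genes (grey bars), in percent. The 37 genes reach 100% on 95-cell B and on the 190-cell arrays, and lie between 56.8% and 86.5% on the other arrays.

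At the start of the series, 13 of the 37 genes were detected on neither 4-cell array and 21 on both. For those 13 the rise from 4 to 190 cells is given as a bound, the 190-cell mean against a 4-cell mean in which each array gives its dimmest signal called well above background, or the probe's own signal if higher. The bounds ran from at least 3.25-fold to at least 29-fold, with a median of at least 4.10-fold. The 4-cell arrays were the least sensitive in share of genes detected, at 49.5% and 49.2% of all genes.

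A signal measured throughout is the stricter base for a fold. 34 of the 80 probes of the 37 genes were well above background on all 95-cell and 190-cell arrays, and they covered 25 genes. Averaged over those probes alone, the rise of the 25 genes ranged from 1.29 to 5.76, with a median of 2.47, and was at least 2 for 22 of them. On all 12 arrays with flags, 19 probes of 16 genes were above background. Their rises ran from 1.09 to 4.65, with a median of 2.34.

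The early courses of the 37 genes were not alike. The highest stage before 190 cells was 95 cells for 13 genes, 4 cells for 12, 28 cells for 9 and 55 cells for 3. From 55 to 95 cells the median change over the 37 genes was 0.54. The mean level was at least 1 higher for 12 genes and at least 1 lower for 3, and the changes ran from -2.18 to 3.21. The rule admits this, because it compares 95 cells with 4 cells and not with 55 cells.

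For 3 genes the 4-cell level lay at least 2 above a later stage that preceded the late rise. One gene began at -2.09 ± 0.068 (SD, n = 2), close under the limit of the rule, and read -4.98 ± 0.20 (n = 3) in the 28-cell embryo and -6.73 ± 0.57 (n = 3) in the 55-cell embryo. It then read -3.80 ± 0.0020 (n = 2) in the 95-cell embryo and -0.48 ± 0.18 (n = 3) in the 190-cell embryo. It was detected on both 4-cell arrays, and on 1 array each at 28 and 55 cells. A second gene ran from a 4-cell mean of -2.82 ± 0.82 (n = 2) through -6.25 ± 0.68 and -6.59 ± 0.79 (n = 3 each), at the next stages, where it was detected on no array with flags. It then reached -3.38 ± 0.038 (n = 2) and, in the 190-cell embryo, -0.76 ± 0.22 (n = 3). A further gene was lowest in the 95-cell embryo, at -5.30 ± 0.45 (n = 2), after -3.19 ± 0.56 (n = 2) at 4 cells, and its 190-cell arrays spread widely, at -1.77 ± 1.87 (n = 3). These courses are described after their values were seen.

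The arrays of the 190-cell stage did not agree in level for these genes. Array C was the highest of the 3 for 29 of the 37 genes, array B for 6 and array A for 2. Over all genes array C was the highest for 19.9%, and over the 142 genes at least 2 higher at 190 than at 95 cells and at a level of at least -2, whatever their earlier course, for 73.2%. The difference of array C minus array B had a median of 1.33 over the 37 genes, with a range from -1.24 to 3.68, against -0.72 over all genes. 6 genes went the other way and were lowest on array C. The rule and the wider group of 142 both used the mean of the 190-cell arrays, so a gene can enter through 1 high array. Without 190-cell C, 11 of the 37 no longer met the rule, against 1 each without A and without B. The counts by array therefore describe the chosen genes, and nothing is read from them. The SD over the 190-cell arrays was at least 1 for 12 genes and had a median of 0.76, against 0.22 over the 95-cell arrays of the same genes and 0.53 over the 190-cell arrays for all genes. The part of scan date, sensitivity or the age of the pooled embryos in this spread was not tested.

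**Figure D3:**
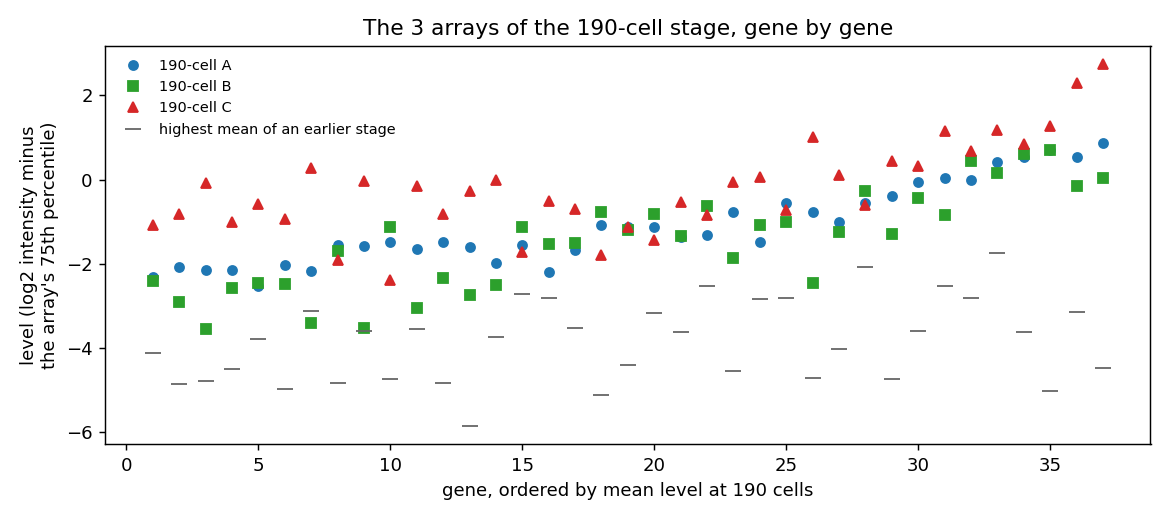
Levels of the 37 genes on the 3 arrays of the 190-cell stage (coloured symbols), on the log2 scale relative to the array's 75th percentile, with genes ordered by their mean level at 190 cells and the highest mean of an earlier stage as grey dashes. 190-cell C is the highest array for 29 of the 37 genes.

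190-cell C, 95-cell B and 55-cell C were scanned on a later date than the other 9 arrays with scanner output. Within the first date, the mean of 190-cell A and B lay above 95-cell A for all 37 genes, as for 33.8% of all genes, with a median rise of 2.84 and a range from 0.99 to 6.20. It was at least 2 for 33 of the 37 and for 1.07% of all genes. Within the second date, 190-cell C lay above 95-cell B for all 37, as for 49.2% of all genes, with a median rise of 4.09 and a range from 2.21 to 7.22. It was at least 2 for all 37 and for 3.31% of all genes. These arrays entered the choice, and nothing is read from the counts. The rise was larger in the second date for 30 of the 37 genes, and for 63.4% of all genes. Each date holds a single 95-cell array, so neither value has a replicate check at that stage. At 95 cells the array of the second date was not the higher: the median of the 37 genes was -4.47 on 95-cell B and -4.24 on 95-cell A. At 55 cells the medians were -5.01, -5.07 and -5.09 on arrays A, B and C.

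**Figure D4:**
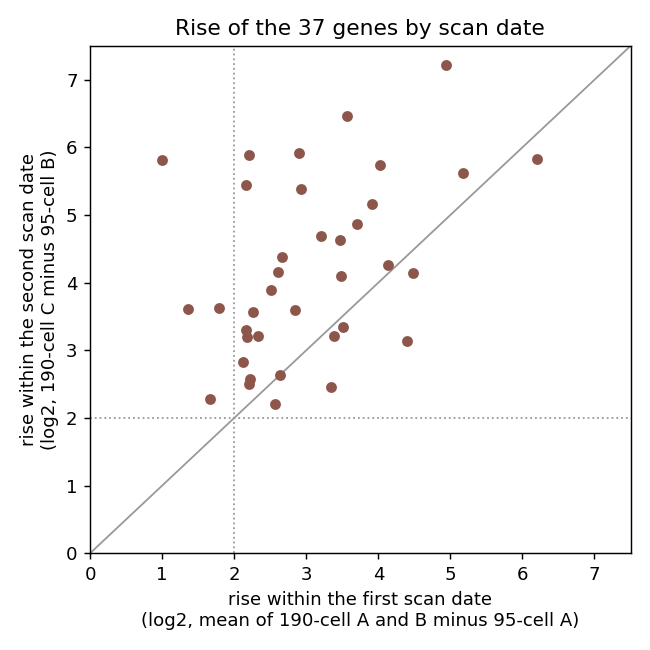
Rise from 95 to 190 cells of each of the 37 genes (points, log2 scale) within the first scan date (horizontal axis) and within the second (vertical axis). The solid line marks equal rises and the dotted lines a rise of 2; all points lie above 2 on the vertical axis, 33 do so on the horizontal axis, and 30 lie above the line of equality.

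The rule was also applied without each 190-cell array in turn, and the array left out was set against the 95-cell mean. The choice had used that mean, so only the 190-cell side of each difference was kept apart from it. Beside the share of all genes stands that of the genes that met the conditions on the earlier stages and were not chosen. These share the low early levels but failed the rise or the level limit on the 190-cell arrays kept. Their low shares and rises on the array left out follow in part from that failure, so they are no matched comparison. Without 190-cell C the rule chose 30 genes, and 24 of them stood at least 2 higher, at a level of at least -2, on 190-cell C, as did 1.43% of all genes and 0.659% of the 10165 others with low early levels. Without 190-cell A it chose 44 genes, of which 26 (59.1%) passed on 190-cell A, against 0.635% of all genes and 0.0788% of 10151 such others. Without 190-cell B it chose 59 genes, of which 21 (35.6%) passed on 190-cell B, against 0.927% and 0.168% of 10136. The median rise on the array left out was 3.38 for C, 3.04 for A and 2.03 for B. For the others with low early levels it was -0.64, 0.16 and 0.50. All 30, 44 and 59 genes were higher on the array left out than their 95-cell mean. The choice used that mean and no share over all genes stands beside these counts, so nothing is read from them. Array B passed the smallest share of the 3. Its stage tag reads 4-cell, and whether that bears on the share was not tested.

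Most of the 37 genes had A and B probes that rose alike, but the rule used the mean of a gene's probes. The counts of rises below therefore describe the 37 genes, and nothing is read from them. 35 genes had 2 probes and 2 had 5. Per the study's design, probes lay in the coding region or a presumptive 3′ UTR, and letters rank them by design score. All 80 probes were higher at 190 than at 95 cells, by 1.09 to 5.94. 73 probes were higher by at least 2, as were 1.84% of all gene probes, and 31 genes had no probe under a rise of 2. The rises of the A and B probes differed by less than 1 for 28 of the 37 genes, with a median difference of 0.25 and a highest of 2.88. In level the probes of a gene were further apart: the median difference at 190 cells was 1.00, against 1.20 over the 19133 genes on the array with both probes. These comparisons show whether probes move together, and no gene's level was set against another's through them.

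**Figure D5:**
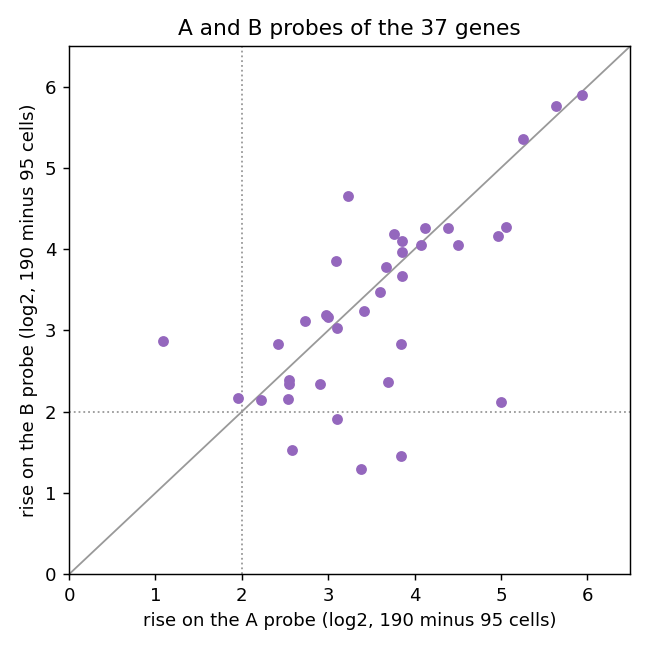
Rise from 95 to 190 cells on the A probe (horizontal axis) and on the B probe (vertical axis) of each of the 37 genes, on the log2 scale. The solid line marks equal rises and the dotted lines a rise of 2; 28 of the 37 points lie within 1 of the line.

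Some genes met the rule through probes that disagreed. 3 probes of 2 genes had an earlier stage mean above the 75th percentile, so that the gene mean was low although a probe was bright. One of these genes had 5 probes, and its A probe had means of -0.68 in the 4-cell, 1.26 in the 95-cell and 2.35 in the 190-cell embryo, a rise of 1.09. The other gene had a B probe with means of 0.48, -0.12 and 1.34 at those stages, a rise of 1.46. With the A probe alone in place of the mean, the rule chose 41 genes, and 19 of them were among the 37. No probe of the 37 genes was saturated on any array with flags, and none carried an outlier flag.

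The rule set the 37 genes apart from a wider group of late risers. 142 genes stood at least 2 higher at 190 than at 95 cells, at a level of at least -2. 11 of the 142 were above -2 at 4 cells. Another 94 were low at 4 cells but stood at least 1 above that level at a middle stage, 78 of them at 95 cells, 36 in the 55-cell embryo and 35 in the 28-cell embryo. Of the 10195 genes that were low at 4 cells and stayed so through 95 cells, 169 stood at least 2 higher at 190 cells, and 132 of these ended under -2. The thresholds cut through a continuous range. The 3 genes closest inside rose by 2.05, 2.06 and 2.18, and the 3 closest outside, which met every other condition, by 1.96, 1.93 and 1.92. At the level limit, the nearest gene outside reached -2.001 at 190 cells.

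Genes of like profile were sought across all 13 arrays, by Pearson correlation with the mean profile of the 37 genes. The highest value was 0.989, and the first and second genes in that order were members. The gene in the next place, with 0.981, was not: its means were -5.79, -6.67, -6.77, -4.21 and 2.44 in order of stage, and it failed because its 95-cell level was more than 1 above its 4-cell level. 16 of the 37 genes in the first 37 places were members. The median correlation was 0.95 over the 37 genes, which helped to make the profile, and -0.20 over all genes. Arrays of a stage share that stage, so these are descriptions over 5 stages rather than over independent points.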

How the data were processed

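Per the file headers, spots were quantified by the authors with Agilent Feature Extraction 9.5.3.1, and the deposited intensity is its processed signal, with background and a spatial trend subtracted and no scaling between arrays. On 12 arrays these values matched the authors' series table (relative tolerance 1e-06), which was used for all 13. Per the labels' protocols, RNA was amplified by in vitro transcription. Columns of another series numbered 0.

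Levels used all 42034 gene probes. The tests used 24781 probes of 13443 genes, those free of outlier flags and well above background throughout at least 1 stage. limma 3.58.1 in R 4.3.3 fitted all 13 arrays with 5 stages, adjusting p over all genes tested. The fit was tested on simulated data. The number of arrays limits the precision. The naming rule took the genes detected on all 190-cell arrays with the largest rise over the highest earlier stage or the highest 190-cell level, those nearest the rise threshold, and those most like the mean profile. As the numbers pair with no symbol, 2 are named and the others are given by rank. Names by tissue marker or protein could not be given. The members and lists were chosen with earlier results of these data known.

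For scaling alternatives, arrays were set on the probes well above background on all 12 arrays, or on 6 spike-in probes, keeping the mean shift of the main scaling. Normexp used an offset of 50 and the median spot and background signals of the scanner output in place of the processed signal.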

Additional observations from a re-analysis of the deposited data

How the results depend on the processing

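The number of genes that meet the rule, 37, moved by over 1.5 times with its level limits, the scaling, the background correction, the probes used and the arrays. It was 72 and 19 with level limits of -3 and -1, and 21 with normexp. With signals raised to a floor, each array's own lowest signal well above background, it was 69. It was 12 with scaling on probes detected everywhere, 56 with only probes that pass the filter and 58 without the 4 arrays with contradictory tags. Leaving out single arrays gave 30 to 59 genes, and 21 of the 37 stayed in each time. With rise limits of 1.5 and 2.5 it was 49 and 29. 14 of the 37 were chosen neither with normexp nor with either other scaling, and 1 under all 8 other settings. The median rise of the 37 genes was 1.77 with normexp, and 2.84 to 3.60 under the other settings. Normexp adds an offset and starts from median spot and background signals, and the part of either was not tested. No rise changed sign under any setting. Of the 37, 16 were called against 95 cells with spike-in scaling. The floor, normexp and spike-in settings also leave out 28-cell C, without which the rule alone gave 37 genes. Over all genes tested, 84 were called with spike-in scaling, 433 without the contradictory arrays, 447 within the first scan date, 471 with no filter on dim probes and 389 to 1115 with an array left out. With the replicate letter as a replicate block, 1049 genes and 37 of the 37 were called. Arrays of a shared letter did not move together as a rule, so the letters were not taken to pair samples. Correlations of their deviations ran from -0.50 to 0.53, with 10 of 23 above 0.1. For differing letters 17 of 44 were above 0.1. Deviations from a stage mean cancel within the stage, so these correlations are tied to each other. The counts are therefore a description and no test of pairing. The 3 arrays of the later scan date correlated at 0.51, 0.35 and 0.53. 28-cell C, whose scan date is not known, correlated at 0.53 with 55-cell C, 0.50 with 95-cell B and 0.33 with 190-cell C. Pairs of the first date ran both ways, such as -0.24 for 4-cell A and 28-cell A and 0.39 for 28-cell A and 55-cell A. With scan date as a block, on 12 arrays, 1378 genes and 37 of the 37 were called. The cause of these changes was not tested.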
